A study of Mus musculus with 7 samples.

Results

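The genes described here are 10 glutathione transferases of mouse liver, Mgst1, Mgst2 and Mgst3 of the microsomal class and Gsta3, Gsta4, Gstm1, Gstm3, Gstp1, Gstt1 and Gstz1 of the cytosolic classes. They were found by gene symbol in the platform's probe annotation, and each had 1 probe, which gave 10 genes of the 16462 named by 1 symbol and 10 of 23574 probes. Mgst1 was chosen because it read lower in the knockout livers in earlier work on the same values, and the other 9 because they belong to the same enzyme families. Their differences between the genotypes are therefore a description. The calls of the fit over all probes are printed once below with their background, intervals show precision only, and neither is evidence on the members. The livers came from 3 C3ar1-/- mice and 4 wild-type littermates on a chow diet, C3ar1 encoding the cell-surface receptor of complement C3a. Each array in 2 colours compared 1 mouse with pooled RNA from the livers of 6 wild-type mice on chow. The labels number the knockout livers 2 to 4 and the wild-type livers 1 to 4. The sources used here give neither sex, age and strain nor the deleted part of C3ar1.

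Values are log ratios against the pool, so they compare 1 gene between mice and not the levels of different genes. A positive value is taken to mean more signal from the mouse, because each title names first the pool and then the mouse, in the order of the dye channels. The direction is likely but not proven, and if it runs the other way all signs turn. The base of the logarithm is not stated either. Base 10 was assumed for every fold. Array medians lay between -0.0008 and 0.0139, close to 0. Whether the columns were centred is not stated. The correlation between arrays over all probes ran from -0.250 to 0.607. Knockout liver 2 had the widest spread over probes, at 0.0975 (SD), where the other 6 arrays had 0.0466 to 0.0676. The number of arrays limits the precision. C3ar1 itself read 0.0042, 0.0337 and 0.0514 in knockout livers 2 to 4, against -0.0296, -0.0318, 0.0225 and 0.0264 in wild-type livers 1 to 4, so the groups overlapped, and since the deleted part is unknown the probe does not check the labels. Of the 9 measured markers of hepatocytes, the main cells of liver, the mean log ratio lay between -0.0361 and 0.0823 in the knockouts and between -0.0604 and 0.0439 in the wild types. Log ratios cannot show whether a defining marker is absent. In liver RNA, fewer cells of a type and less RNA per cell cannot be told apart.

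Glutathione transferases join the tripeptide glutathione to reactive, fat-soluble compounds, which makes them water-soluble and ready for export. The cytosolic enzymes are soluble dimers sorted into classes such as alpha, mu, pi, theta and zeta, while the microsomal ones sit in membranes and belong to an unrelated family, MAPEG, that also makes lipid mediators. In liver both kinds are part of the defence against drugs and lipid peroxides, and many of the cytosolic genes are induced through the transcription factor Nrf2 at antioxidant response elements.

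The promoter of Mgst1 is shown because this gene had the largest difference of the 10, and that of Gsta3 because it was the only other member with a match to the core of the antioxidant response element. Promoter windows of RefSeq (GRCm38.p6) were matched by symbol for 9 of the 10 genes, all but Gsta4, which gave 12 windows of 250 bases before a transcription start. The core was searched as TGACNNNGC on both strands, and TATAAA and GGGCGG likewise. The core was present in 2 of the 12 windows, against 10.2% of 32851 windows of all genes. In both sequences, printed 5′ to 3′ on the strand of the gene, capitals mark the match. In Mgst1 (chr6:138140277-138140526, plus strand) it lies on the opposite strand and its first base is 56 bases before the start, and in Gsta3 (chr1:21240335-21240584, plus strand) it lies on the strand of the gene, 121 bases before the start.
Mgst1: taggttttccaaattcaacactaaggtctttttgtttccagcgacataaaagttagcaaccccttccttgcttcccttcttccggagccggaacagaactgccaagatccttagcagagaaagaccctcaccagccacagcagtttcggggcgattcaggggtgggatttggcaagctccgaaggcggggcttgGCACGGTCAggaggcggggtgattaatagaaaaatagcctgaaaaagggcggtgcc
Gsta3: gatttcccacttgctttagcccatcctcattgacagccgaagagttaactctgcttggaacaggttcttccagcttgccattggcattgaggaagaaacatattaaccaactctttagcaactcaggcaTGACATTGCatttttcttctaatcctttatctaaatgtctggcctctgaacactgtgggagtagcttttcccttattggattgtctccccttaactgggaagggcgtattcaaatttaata
The second window of Mgst1, at a later start, held no match. TATAAA was found in 2 of the 12 windows, of Mgst2 and Gstm1, against 12.4% of all windows. GGGCGG was found in 6 of the 12 windows, of Mgst1, Mgst3, Gstm3, Gstp1 and Gstz1, against 32.7% of all windows. These matches describe the letters of the windows, and no binding was measured.

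Mgst1, the most abundant microsomal transferase of liver, which also reduces lipid hydroperoxides, was the member that separated the genotypes. It gave -0.336, -0.240 and -0.340 in knockout livers 2, 3 and 4, against 0.0716, -0.0009, 0.0546 and -0.173 in wild-type livers 1 to 4. All 3 knockouts lay below all 4 wild types, with a gap of 0.0673 between knockout liver 3 and wild-type liver 4. Mgst1 averaged -0.306 ± 0.0566 over the knockouts and -0.0119 ± 0.112 over the wild types (SD, n = 3 and 4). The difference of -0.294 ± 0.0598 (SE) corresponds to 1.97-fold lower in the knockouts in base 10, with a 95% interval from 1.43 to 2.71, and to 1.23-fold in base 2. A further 16 of the 23574 probes had a more negative difference. Wild-type liver 4 stood apart from the other wild types toward the knockouts, and the SD of Mgst1 among wild types was above that of 96.7% of all probes.

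Mgst2 and Mgst3, which share the MAPEG fold with Mgst1 and can make leukotriene C4, did not separate the genotypes. Mgst2 gave -0.0531, -0.0284 and -0.138 in knockout livers 2 to 4, against -0.0197, 0.116, -0.0477 and -0.0119 in wild-type livers 1 to 4. Its difference was -0.0824 ± 0.0442 (SE), with a 95% interval from -0.185 to 0.0203. It was -0.0468 when wild-type liver 2 was left out and -0.0500 when knockout liver 4 was. The groups overlapped through wild-type liver 3, and the highest value was that of wild-type liver 2. Mgst3 gave -0.0125, 0.0071 and -0.190 in knockout livers 2 to 4, against 0.0438, 0.0794, -0.117 and -0.114 in wild-type livers 1 to 4. Its difference was -0.0382 ± 0.0669 (SE), and ran from -0.0743 without knockout liver 3 to 0.0243 without knockout liver 4, with each of the 7 omissions moving it by over 1.5 times.

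Set against its relatives on the same array, Mgst1 was low in every knockout. Mgst1 minus Mgst2 was -0.283, -0.212 and -0.202 in knockout livers 2 to 4, against 0.0913, -0.117, 0.102 and -0.161 in wild-type livers 1 to 4. Mgst1 minus Mgst3 was -0.324, -0.247 and -0.150 in the knockouts, against 0.0278, -0.0803, 0.172 and -0.0589 in the wild types. Mgst1 minus the median of the 7 cytosolic members was -0.409, -0.286 and -0.293 in the knockouts, against 0.107, -0.0589, 0.0198 and -0.196 in the wild types. None of these contrasts overlapped between the genotypes, and each contains the value for which Mgst1 was chosen.

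**Figure D1:**
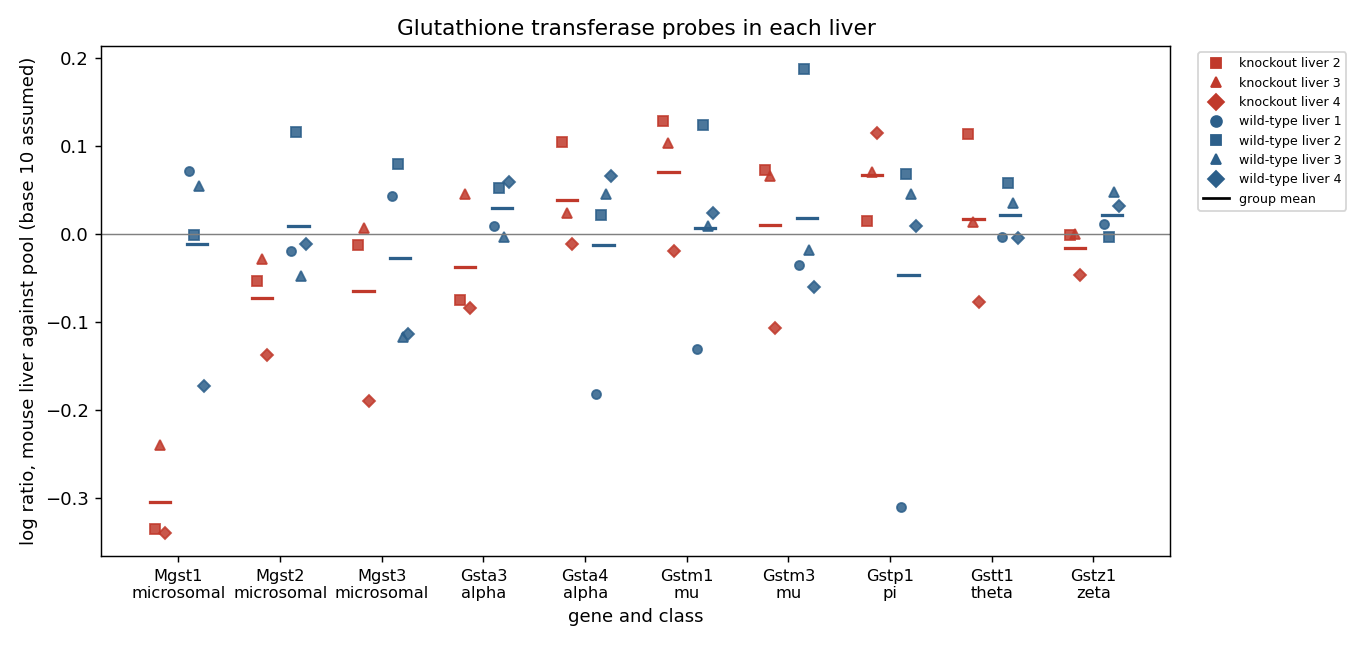
Log ratio against the pool (vertical axis, base 10 assumed) of each of the 10 transferase probes (horizontal axis, with class), with 3 knockout livers in red left of 4 wild-type livers in blue; symbols mark the mice and bars the group means. Mgst1 alone has no overlap, from -0.340 to -0.240 in the knockouts against -0.173 to 0.0716 in the wild types, and the lowest Gstp1 value is -0.311 in wild-type liver 1.

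Among the cytosolic members the groups overlapped in all 7 genes. The alpha class acts on products of lipid peroxidation. Gsta3 gave -0.0753, 0.0456 and -0.0838 in knockout livers 2 to 4, against 0.0088, 0.0526, -0.0039 and 0.0589 in wild-type livers 1 to 4. Knockout livers 2 and 4 lay below every wild type, while knockout liver 3 lay inside their range, and the difference was -0.0669 ± 0.0354 (SE). It was -0.109 without knockout liver 3 and -0.0440 without knockout liver 4. Gsta4, whose enzyme prefers the lipid aldehyde 4-hydroxynonenal, gave 0.104, 0.0242 and -0.0109 in the knockouts, against -0.182, 0.0222, 0.0453 and 0.0658 in the wild types. Its difference of 0.0513 ± 0.0614 (SE) became -0.0053 on leaving out wild-type liver 1, the lowest of the 7 livers. It became 0.0188 on leaving out knockout liver 2 and 0.0772 on leaving out wild-type liver 4.

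The mu class is the largest cytosolic class in mouse and its genes lie side by side on chromosome 3. Gstm1, a main transferase of mouse liver, gave 0.129, 0.103 and -0.0190 in knockout livers 2 to 4, against -0.130, 0.125, 0.0090 and 0.0235 in wild-type livers 1 to 4. Gstm3 gave 0.0732, 0.0665 and -0.107 in the knockouts, against -0.0356, 0.188, -0.0181 and -0.0607 in the wild types. Knockout liver 2, knockout liver 3 and wild-type liver 2 held the highest values of both genes. The same 3 mice were highest for Gstm2, a mu gene outside the 10, at 0.248, 0.0935 and 0.264. The difference of Gstm1, 0.0643 ± 0.0609 (SE), became 0.0186 when wild-type liver 1 was left out and 0.104 when wild-type liver 2 was. It became 0.0355 on leaving out knockout liver 2 and 0.109 on leaving out knockout liver 4. That of Gstm3 was -0.0076 ± 0.0695 (SE), and ran from -0.0388 without knockout liver 2 to 0.0515 without knockout liver 4, with each of the 7 omissions moving it by over 1.5 times. The mu genes are close copies, and the part of their shared pattern that comes from cross-hybridisation of the probes was not tested.

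Gstp1 encodes the pi class enzyme, which in mouse liver is higher in males. It gave 0.0150, 0.0708 and 0.115 in knockout livers 2 to 4, against -0.311, 0.0683, 0.0461 and 0.0093 in wild-type livers 1 to 4. Wild-type liver 1 was far below the other 6 livers, which lay between 0.0093 and 0.115. The difference of 0.114 ± 0.0887 (SE) was 0.0256 without that liver. The neighbouring copy Gstp3 also had its lowest value in wild-type liver 1, at -0.0887, and its highest in knockout liver 4, at 0.0646. Gstp2, a near-identical copy of Gstp1, was not measured by a probe of its own here, and signal of the 2 genes cannot be told apart. The mean of 11 measured genes known as male-biased in liver was -0.0762, -0.0217 and 0.119 in knockout livers 2 to 4, against -0.215, -0.140, 0.126 and -0.0108 in wild-type livers 1 to 4, and was thus lowest in wild-type liver 1. Of these 11 genes, 1 had a lower and 10 a higher mean in the knockouts, where 43.3% of all genes had a lower mean. Limma called 0 of them, with 0 at an unadjusted p under 0.05 (4.79% of all genes) and 0 without overlap (5.38% of all genes). The part of male-biased genes in the Gstp1 values was not tested.

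Gstt1, a theta class enzyme that acts on small halogenated compounds, overlapped fully between the genotypes. It gave 0.114, 0.0136 and -0.0777 in the knockouts, against -0.0032, 0.0580, 0.0348 and -0.0043 in the wild types. The knockouts spanned 0.192 and enclosed the whole range of the wild types, and the difference was -0.0047 ± 0.0430 (SE). It ran from -0.0534 without knockout liver 2 to 0.0425 without knockout liver 4, and was also positive, at 0.0076, when wild-type liver 2 was dropped. Gstz1, the zeta class enzyme of tyrosine breakdown, gave -0.0008, 0.0001 and -0.0470 in the knockouts, against 0.0111, -0.0036, 0.0475 and 0.0323 in the wild types. Its difference was -0.0377 ± 0.0212 (SE), and -0.0222 without knockout liver 4, and the groups overlapped only through wild-type liver 2.

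In all, 7 of the 10 probes had a lower mean in the knockouts and 3 a higher one, where 43.0% of all 23574 probes had a lower mean. Without knockout liver 4 the count was 4. Mgst1 was the 1 probe of 10 without overlap between genotypes, where 5.26% of all probes had none, 2.54% with lower and 2.71% with higher knockouts. The limma fit over all probes called 0 of the 10 at an adjusted p under 0.05, where it called 0.00424% of all probes, and 1 of 10, Mgst1, had an unadjusted p under 0.05, where 4.47% of all probes did. The ordinary test without pooled spread also called 0. Since Mgst1 was chosen on this contrast, nothing is read from these counts. For the other 9 members the differences ran from -0.0824 to 0.114, or 1.01-fold to 1.30-fold in size. The median over the 10 was -0.0226, against 0.00555 over all probes, and without knockout liver 4 it was 0.0334.

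Single mice held the extreme values of several members. Knockout liver 4 had the lowest of the 7 values in 7 of the 10 members, and wild-type liver 1 in the other 3, Gsta4, Gstm1 and Gstp1. The share of all probes lowest in knockout liver 4 is not given here. Knockout liver 4 was also lowest in 11 of 23 genes of peroxidases, peroxiredoxins and thioredoxins and in 8 of 11 female-biased genes. In other lists it was lowest in 4 of 13 pericentral genes and 3 of 18 genes of glutathione synthesis and breakdown. It was lowest in 2 of 12 xenobiotic receptors and targets, 0 of 12 periportal genes and 0 of 12 macrophage and Kupffer cell markers. Knockout liver 2 and wild-type liver 2 were highest in 3 members each. Over the 7 cytosolic members the mean log ratio was 0.0513, 0.0463 and -0.0330 in knockout livers 2 to 4, against -0.0917, 0.0728, 0.0230 and 0.0178 in wild-type livers 1 to 4. The 11 measured genes known as female-biased in liver averaged 0.0063, 0.0394 and -0.276 in knockout livers 2 to 4, against 0.0993, 0.0811, -0.149 and 0.0077 in wild-type livers 1 to 4. Their mean was lowest in knockout liver 4, the liver with the lowest value of 7 members. In wild-type liver 1, by contrast, their mean was the highest and that of the cytosolic members the lowest. Of the 11 female-biased genes, 10 had a lower and 1 a higher mean in the knockouts, where 43.3% of all genes had a lower mean. Limma called 0 of them, with 1 at an unadjusted p under 0.05 (4.79% of all genes) and 0 without overlap (5.38% of all genes). The part of female-biased genes in the transferase values was not tested.

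**Figure D2:**
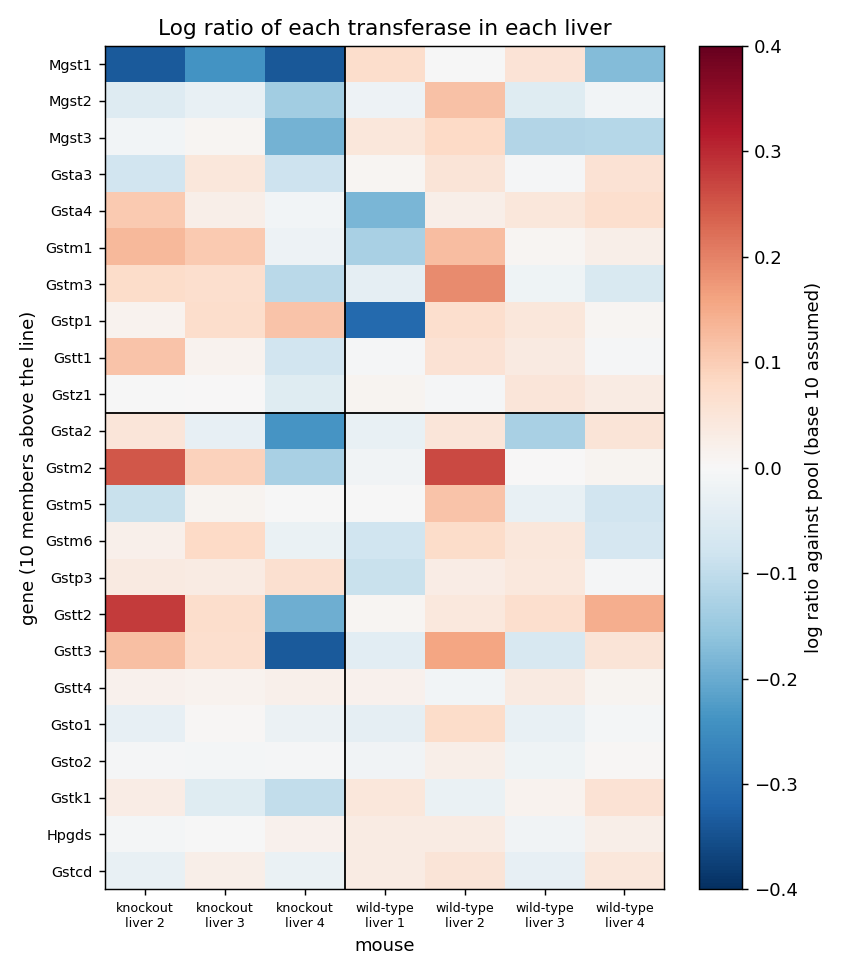
Log ratio against the pool (colour, base 10 assumed) of the 10 members above the line and 13 other measured transferases below it (rows) in each liver (columns, knockouts left of wild types). Of the 23 genes, 12 had their lowest value in knockout liver 4 and 9 their highest in wild-type liver 2.

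Of 19 further transferase genes listed, 13 were measured, 9 with a lower and 4 with a higher mean in the knockouts, and the limma fit on averaged probes called 0, with 0 at an unadjusted p under 0.05 (0.00607% of all 16462 genes were called and 4.79% were under the unadjusted level). Their median difference was -0.0146. Gstk1, the mitochondrial kappa class gene, gave 0.0303, -0.0482 and -0.0986 in knockout livers 2 to 4, against 0.0441, -0.0273, 0.0150 and 0.0576 in wild-type livers 1 to 4. Gstt3, a theta gene beside Gstt1, had the widest range, its extremes being -0.334 (knockout liver 4) and 0.157 (wild-type liver 2). Gstcd, which encodes a protein with a transferase-like domain, differed by -0.0353 ± 0.0268 (SE). Both probes of Gsta2 were lowest in knockout liver 4, at -0.216 and -0.255. Of the other MAPEG genes, Ltc4s, the leukotriene C4 synthase of white blood cells, gave 0.176, 0.0983 and 0.0377 in the knockouts, against -0.0229, 0.0141, 0.0183 and 0.0462 in the wild types. The groups overlapped through knockout liver 4, and limma called 0 of the 3 MAPEG genes, with 1, Ltc4s, at an unadjusted p under 0.05. Alox5ap, the 5-lipoxygenase activating protein gene of white blood cells, differed by -0.0136 and the prostaglandin E synthase gene Ptges by 0.0259. The 12 measured markers of macrophages and Kupffer cells, which express leukotriene genes, averaged -0.0968, -0.150 and 0.118 in knockout livers 2 to 4, against -0.105, -0.0991, -0.233 and -0.0611 in wild-type livers 1 to 4. All 12 had a higher mean in the knockouts, where 43.3% of all genes had a lower one. Limma called 0 of them, with 1 at an unadjusted p under 0.05 and 1 without overlap (5.38% of all genes). The part of these markers in the MAPEG values was not tested.

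**Figure D3:**
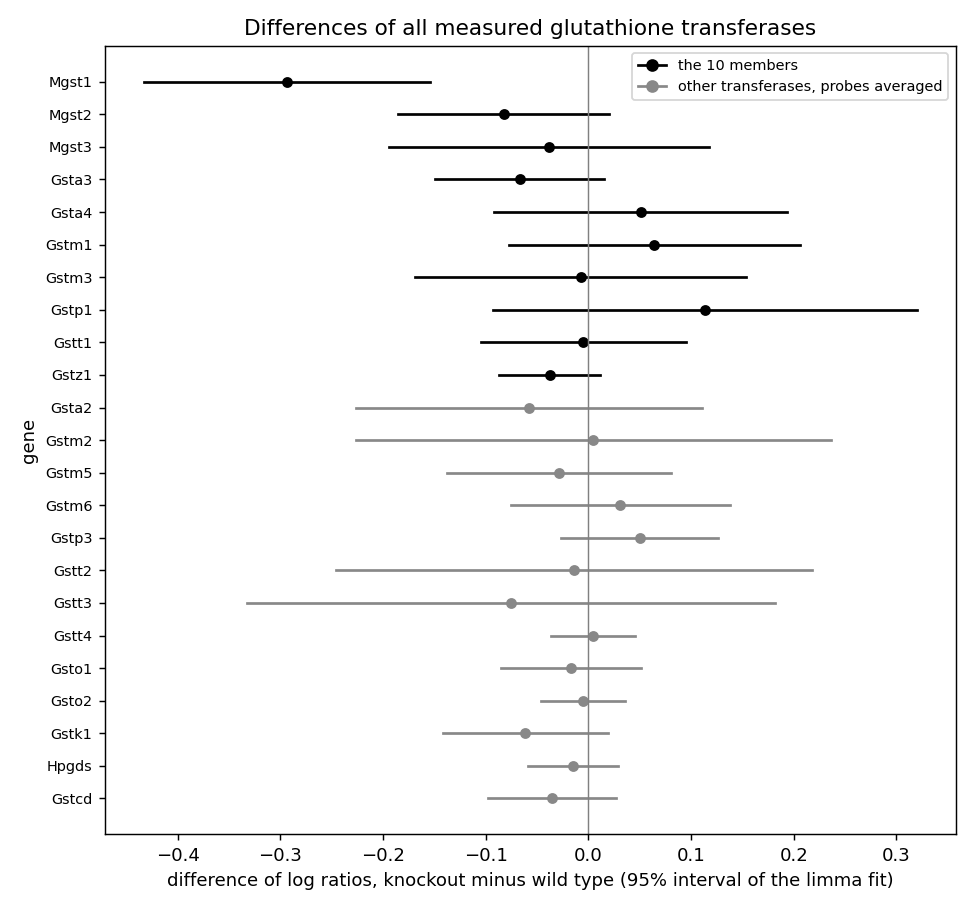
Difference of log ratios, knockout minus wild type (horizontal axis), with the 95% interval of the limma fit (lines), for the 10 members in black and 13 other transferases in grey (vertical axis). The interval of Mgst1 runs from -0.433 to -0.154, and those of the other 9 members include 0.

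Genes around the use of glutathione were read from 8 lists that hold 110 measured genes, of which 61 had a lower mean in the knockouts and 0 were called in either direction by limma, where 43.3% of all genes had a lower mean. At an unadjusted p under 0.05 there were 7, or 6.36%, against 4.79% of all genes, and the ordinary test called 0. Genes without overlap made up 4.55% of them, against 5.38% of all genes. Among 18 genes of glutathione synthesis and breakdown, 9 read lower and 9 higher. Gclc, the catalytic subunit of the enzyme that limits glutathione synthesis, differed by -0.0575 ± 0.0731 (SE), and its partner Gclm by -0.0218. Chac2, which splits glutathione in the cytosol, gave -0.459, -0.171 and -0.154 in knockout livers 2 to 4, against 0.0680, -0.0010, -0.0811 and -0.177 in wild-type livers 1 to 4. Ggct, a gamma-glutamylcyclotransferase gene, differed by -0.0843 ± 0.0324 (SE), and Ggt7, of the gamma-glutamyltransferase family, by 0.0497. None of these passed.

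Among 26 measured genes of Nrf2 and its targets outside the transferases, 14 read lower and 12 higher, with a median of -0.0091. Nfe2l2, the gene of Nrf2 itself, gave -0.163, -0.0557 and -0.0466 in knockout livers 2 to 4, against -0.0171, -0.0460, 0.0732 and 0.0121 in wild-type livers 1 to 4. Ugdh, which makes UDP-glucuronic acid, gave -0.274, -0.107 and -0.139 in the knockouts, against 0.0254, 0.0288, -0.0135 and -0.0798 in the wild types. Neither gene overlapped between the genotypes and neither passed, with differences of -0.0940 ± 0.0383 and -0.163 ± 0.0450 (SE). The classical target Nqo1 overlapped, its extremes being -0.224 (knockout liver 4) and 0.229 (wild-type liver 2). The cystine transporter gene Slc7a11 differed by 0.0380.

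Of 23 genes of glutathione peroxidases, peroxiredoxins and the thioredoxin system 16 read lower and 7 higher. Sod2, the mitochondrial superoxide dismutase, differed by -0.0506 ± 0.0215 (SE) and Gpx8, a peroxidase of the endoplasmic reticulum, by 0.0579 ± 0.0268 (SE), both without overlap. The glutaredoxin gene Glrx5 differed by -0.0897. Of 12 genes of conjugate export and mercapturate formation 6 read lower and 6 higher, with Kyat1 at 0.104, the efflux pump gene Abcg2 at -0.0651 and Abcc1 at -0.0513. Of 12 xenobiotic receptors and targets 4 read lower and 8 higher, with the dioxin receptor gene Ahr at -0.140, Cyp3a11 at -0.109 and Hnf4a at 0.0283. Of 10 genes of the glyoxalase and aldehyde list 7 read lower and 3 higher, and Aldh1a1, a retinal dehydrogenase, differed by -0.116 ± 0.0404 (SE) without overlap, with Aldh3a2 at -0.207 and Adh5 at -0.0607.

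Since several transferases are strongest around the central vein, zonal genes were read beside them. Of 13 measured pericentral genes 9 read lower in the knockouts, where 43.3% of all genes did. Limma called 0 (0.00607% of all genes), with 4 at an unadjusted p under 0.05 (4.79% of all genes) and 4 without overlap (5.38% of all genes). Averaged over the list they gave -0.0131, -0.0155 and -0.0663 in knockout livers 2 to 4, against 0.0047, 0.0075, 0.0252 and 0.0325 in wild-type livers 1 to 4, and did not overlap. Oat, the ornithine aminotransferase, gave -0.137, -0.136 and -0.238 in the knockouts, against 0.0811, 0.111, -0.0888 and 0.0161 in the wild types. Rgn and the Wnt-responsive receptor gene Lgr5 differed by -0.0891 and -0.0877, both without overlap. Oat, Rgn and Lgr5 are the 3 genes of smallest p in the list. Axin2 was the remaining gene without overlap, with a difference of -0.0679. The other pericentral genes overlapped, among them Glul at 0.0037, Cyp2e1 at -0.0169, Cyp2c29 at 0.0173 and Cyp1a2 at 0.0749. All 12 measured periportal genes had a higher mean in the knockouts, and limma called 0, with 1 at an unadjusted p under 0.05, the gluconeogenic Pck1, and 0 without overlap, against the same shares of all genes. Averaged over the list they gave 0.0484, 0.0869 and 0.0741 in knockout livers 2 to 4. The wild-type livers 1 to 4 gave -0.0971, 0.104, -0.0141 and 0.0341, so the groups overlapped. The smallest difference of the list was 0.0021. Pck1 differed by 0.134 ± 0.0448 (SE), G6pc by 0.138 and Hal by 0.103, while Cdh1, named after its values were seen, had the largest difference of the list at 0.143. The part of zonal genes in the transferase values was not tested. Markers of bile duct cells averaged -0.0028, -0.0446 and 0.0092 in knockout livers 2 to 4, against -0.0731, 0.164, -0.0401 and -0.0125 in wild-type livers 1 to 4, so wild-type liver 2, the highest liver for Mgst2, Mgst3 and Gstm3, was also highest there.

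Mgst1 lies on chromosome 6, as does C3ar1, with 160 measured genes between them in the order of the RefSeq annotation (GRCm38.p6, used for names and order only, as the sources used here do not name a build for the probes). The 5 measured genes on each side of Mgst1 carried 11 probes, of which 2 were lower and 2 higher in the knockouts without overlap, and limma called 0, with 5.26% of all probes without overlap. The 2 lower ones, Slc15a5 next to Mgst1 and Dera beyond it, lie on the same side. Slc15a5, of the peptide transporter family, gave -0.518, -0.530 and -0.586 in knockout livers 2 to 4, against 0.0731, 0.160, 0.0871 and -0.116 in wild-type livers 1 to 4. Dera, the deoxyribose-phosphate aldolase, gave -0.281, -0.266 and -0.291 in the knockouts, against 0.0250, 0.0413, 0.0319 and -0.110 in the wild types. On the other side, 1 of the 2 probes of the lipid kinase gene Pik3c2g gave 0.492, 0.497 and 0.338 in the knockouts, against -0.227, -0.0739, -0.265 and 0.251 in the wild types, while the other differed by -0.0149. Eps8, which encodes an actin regulator, gave 0.0839, 0.105 and 0.0374 in the knockouts, against -0.0317, -0.0802, -0.144 and -0.0075 in the wild types. Strap, Lmo3, Igbp1b, Plcz1, Capza3 and Ptpro overlapped, with differences from -0.0291 for Capza3 to 0.0808 for Ptpro.

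In all 5 of these probes without overlap, Mgst1 included, wild-type liver 4 was the wild type nearest to the knockouts. Over the 1239 probes of the whole array without overlap it was the nearest in 33.6%, wild-type liver 3 in 31.9%, wild-type liver 2 in 19.5% and wild-type liver 1 in 15.0%. Neighbouring genes share a chromosome and are not independent of each other.

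**Figure D4:**
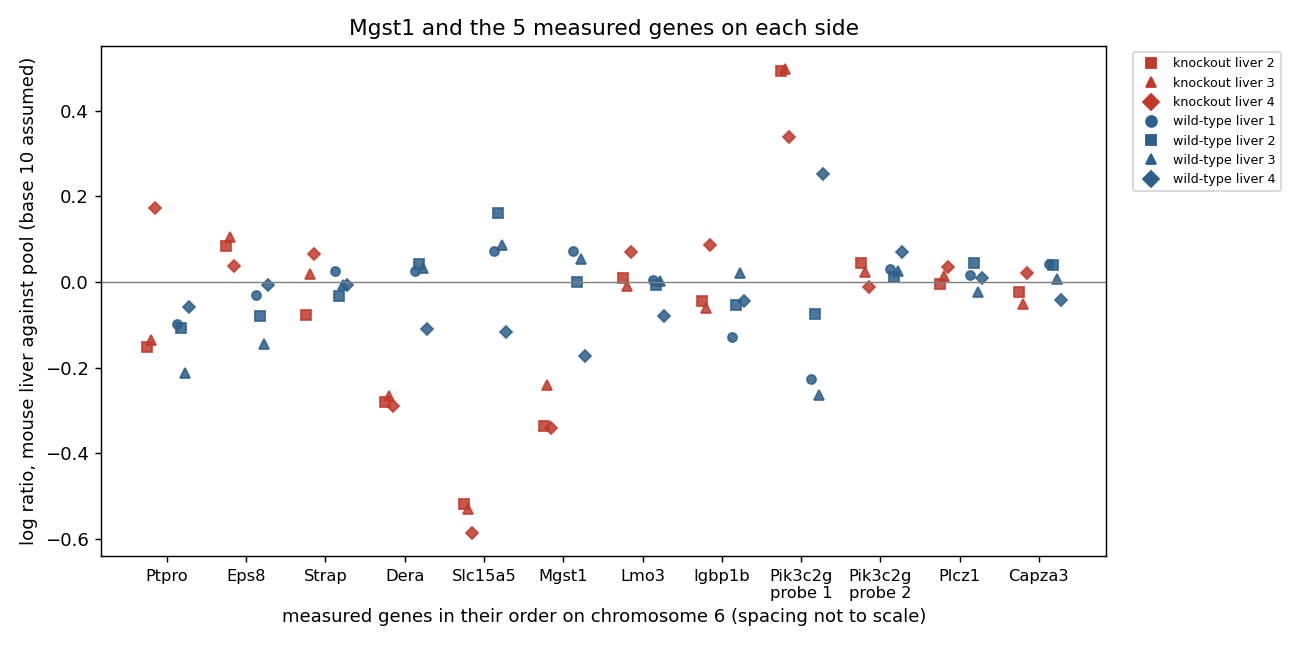
Log ratio against the pool (vertical axis, base 10 assumed) of Mgst1 and the 5 measured genes on each side in their order on chromosome 6 (horizontal axis, not to scale), with knockout livers in red left of wild-type livers in blue. Dera, Slc15a5 and Mgst1 are lower in all 3 knockouts than in all 4 wild types, the first probe of Pik3c2g is higher, and wild-type liver 4 lies nearest to the knockouts in each of them.

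The genes whose profile was most like that of Mgst1 over the 7 arrays were taken by the smallest mean absolute difference of log ratios. They were Dera at 0.0435 and the proapoptotic gene Bid at 0.0598, both on chromosome 6, then Car2, a carbonic anhydrase gene, at 0.0683, the cathepsin gene Ctso at 0.0702, both on chromosome 3, and Hpgd, which inactivates prostaglandins, at 0.0734. The median of this distance over all named probes was 0.182. Bid gave -0.270, -0.218 and -0.231 in knockout livers 2 to 4, against -0.0503, 0.0137, 0.0288 and -0.115 in wild-type livers 1 to 4. Car2 gave -0.236, -0.229 and -0.272 in the knockouts, against 0.0441, 0.0839, -0.0314 and -0.0725 in the wild types. Wild-type liver 4 was the lowest wild type for Dera, Bid, Car2 and Ctso, as for Mgst1, while for Hpgd it was wild-type liver 2. Since these genes were picked for closeness to Mgst1 over all 7 arrays, wild-type liver 4 included, such likeness follows from the choice.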

How the data were processed

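Liver RNA of 7 mice was measured on 2-colour arrays, 1 mouse per array against a pool of 6 wild-type livers. Per the labels' protocols, total RNA was purified on spin columns with DNase, labelled with an aminoallyl amplification kit and carried Cy3 (channel 1) and Cy5 (channel 2). The design text names a dye swap. The sources used here do not say how the swap, background and normalization entered the deposited log ratios, and the authors' values were read as log10 by assumption. Probe brightness was not analysed here, and 0 value columns were left unused.

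Probes were named by Entrez number (17724), accession (21) or the annotation's symbol (79) against the GRCm38.p6 table, while 50 had several symbols and 5700 none listed. Each probe was fitted with limma 3.58.1 in R 4.3.3 (knockout minus wild type, two-sided, Benjamini-Hochberg over 23574 probes, threshold 0.05). Lists were read from the same fit after probes of a gene were averaged. A check of the fit used simulated data of 23574 probes with independent normal noise and 50 planted changes per size. In it, 10%, 76%, 98% and 100% of changes of 0.1, 0.2, 0.4 and 0.8 were recovered, with 5 false calls. The planted changes ease the adjusted threshold, so these shares do not carry over to the measured arrays. There 1 probe was called, and Slc15a5, at a difference of -0.596, was not.

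The members and lists were chosen with earlier results of these data known. The text names the 10 members, up to 3 genes of smallest p per list of the glutathione pathway (and for zonal lists), 5 neighbours on each side of Mgst1, the 5 genes most like it, and C3ar1. Gclc, Gclm, Nqo1, Gstm2, Gstt3, Gsta2, Axin2, Glul, Cyp2e1, Cyp2c29 and Cyp1a2 were named after their values were seen. The 21 lists held 8 of the pathway and 13 of sex, zones and cell types. Among lists not described above, limma called 0 genes (0.00607% of all genes). Counts at an unadjusted p under 0.05 (4.79% of all genes) were 3 of 13 endothelial markers (11 higher, 3 without overlap), 1 of 12 stellate (10 higher, 0 without), 3 of 11 lymphocyte (9 higher, 3 without), 0 of 10 neutrophil and mast cell (7 higher, 1 without), 1 of 6 erythroid (3 higher, 0 without) and 0 of 2 sex-linked genes, where 5.38% of all genes had no overlap. Of the 3 lymphocyte markers without overlap, 2 were higher and 1 was lower in the knockouts. The limma p-values weigh each group difference against the spread within the groups, drawn toward that of all probes. With 1 column of values per mouse, animal and technical spread cannot be told apart. Alternatives were other normalizations, a filter on variation, other variance models, array weights, a replicate block, an ordinary test and each mouse left out.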

Additional observations from a re-analysis of the deposited data

Results flagged for a closer look

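The wild-type livers held 1 value far from the others among the 10 members tested this way. For Gstp1, the gap between wild-type liver 1, at -0.311, and the next wild type, at 0.0093, was 0.844 of the whole range of the 4 wild types, above the 95% critical value of Dixon's ratio for 4 samples. Chance flags about 1 in 20 groups, and knockout livers, at 3, were not tested.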

How the results depend on the processing

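Over 16 alternatives to the fit, 9 of them other settings and 7 with 1 mouse left out, the difference of Mgst1 stayed negative. It was -0.239 after quantile normalization, -0.258 with array weights and -0.275 after scale normalization, and -0.347 to -0.266 with 1 mouse left out. No alternative called any member. In base 2 its fold is 1.23. Gsta4, Gstm3, Gstt1 and Mgst3 turned sign under at least 1 alternative, while Mgst1, Mgst2, Gsta3, Gstm1, Gstp1 and Gstz1 did not. The median difference of the 10 ran from -0.0467 to 0.0334 with 1 mouse left out, the positive values being 0.0334 (knockout liver 4 left out) and 0.0024 (wild-type liver 2 left out). The number with a lower mean in the knockouts, counted under each alternative after seeing the data, was 4 without knockout liver 4, 5 when arrays were weighted and also when wild-type liver 2 was left out, and 7 or 8 otherwise. The probes called over the whole array, 1 in the fit as reported, were 0 after quantile or scale normalization, with a trend, with the replicate block and in the ordinary test, 3 with the least variable 25% of probes left out, and 0 to 3 with 1 mouse left out. Pathway genes called stayed at 0 throughout. Mouse numbers were not taken to pair the samples. Deviations of the same numbers correlated at -0.137, -0.205 and -0.154, inside the -0.293 to 0.329 of unlike numbers. So few arrays cannot decide whether the numbers pair mice. With the replicate block, which drops wild-type liver 1 as it has no knockout of its number, Mgst1 differed by -0.266 and the median of the 10 by -0.0201. Signal over background is unknown, so a probe near background could hide a difference.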
